A study of Danio rerio with 6 samples.

Results

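The genes described here are 42 genes of DNA replication and mitosis, out of the 31624 genes in the deposited table of whole zebrafish embryos. They were taken by name from a list of 42 symbols, by a rule that uses no measured value. The list itself was chosen with earlier results of these data known. 41 of the symbols were found, and incenp, the scaffold of the chromosomal passenger complex, was not matched by its symbol and was not analysed here. The symbol rrm2 belongs to 2 genes, ENSDARG00000020711 and ENSDARG00000078069, so that 22 genes were counted under replication and 20 under mitosis. Gmnn and cdk2, counted under replication, and mki67, top2a and ccna2, counted under mitosis, act in both phases and are not clearly of either class. All 42 passed the filter on low values, a mean of at least 0.5 FPKM (a read count scaled by exonic length and library total) over the 6 libraries, which left 16489 genes for testing.

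RNA was sequenced from embryos of the AB strain at 33 hours post fertilization, in 3 libraries of rbm24a mutants and 3 libraries of wild-type embryos. Rbm24a encodes an RNA-binding protein, and the mutants carry an 8 bp deletion made with TALENs, which are paired site-specific nucleases. The labels disagree on the deleted exon, which is left out here, and they do not say whether each sample came from a separate clutch. The p-values therefore measure the spread between these samples, which may be technical.

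DNA is copied once per cell cycle. Licensing factors load the MCM helicase onto origins in G1 phase, S phase kinases fire those origins, and the polymerases, clamp and clamp loader then extend the new strands from nucleotides made by ribonucleotide reductase. In mitosis, Cdk1 with its cyclins, Plk1 and the Aurora kinases build the spindle, kinesins move and hold microtubules, and a checkpoint delays chromosome separation until every kinetochore is attached. Zebrafish embryos at this stage hold cycling progenitors beside many cells that have left the cycle, and expression of these genes is widely used to mark proliferating cells. The roles given for single genes are those known for the human proteins of the same names.

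Libraries held between 13242789 and 16043155 gene reads. The leading principal component, with 59.3% of the variance, separated the mutant from the wild-type libraries. On the next, with 21.1%, mutant replicate 2 lay at -36.2, against 18.9 and 11.03 for mutant replicates 1 and 3. Wild-type replicate 2 lay on the same side at -12.5, against 9.88 and 8.85 for wild-type replicates 1 and 3. Because mutant replicate 2 stands apart, changes without it are also given below for many of the genes, after the values over all 6 libraries. Without it, the log2 change moved by over 1.5 times or changed sign for 17 of the 22 replication genes and 11 of the 20 mitosis genes. The sign changed for 6 replication genes and 1 mitosis gene. A change near 0 passes this measure with a small shift, and the same count was not made over all genes tested. Rbm24a itself had 288, 514 and 366 reads in the mutants, against 204, 247 and 211 reads in wild type, and was called higher in the mutants (log2 change 0.77, SE 0.16, adjusted p = 0.00571 in the edgeR quasi-likelihood test, Benjamini-Hochberg). A small deletion need not lower the transcript, so the genotype cannot be read from this level.

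Most of the replication and mitosis genes lay close to the wild-type level in the mutants. With an adjusted p under 0.05, 5 of the 42 were called. Cdca8 rose, and mki67, gmnn, kifc1 and the rrm2 gene ENSDARG00000020711 fell. That is 11.9% of the genes, near the 14.2% called among all genes tested. Upward calls made up 6.71% of all genes tested and downward calls 7.48%, against 1 and 4 of the 42. The median size of the log2 change, without regard to sign, was 0.12 for the 42 genes and 0.22 over all genes. These sizes were not compared at like expression, since the median of the mean FPKM was 59.9 for the 42 genes and 4.64 over all genes. The median SE of the change was 0.13 for replication genes, 0.11 for mitosis genes and 0.16 over all genes. Of the 37 that were not called, 36 had a 95% interval of the change lying within 1.5-fold in either direction, and all 42 intervals lay within 2-fold.

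Replication genes were counted apart from mitosis genes. Among the 22 replication genes, 0 rose and 2 fell in the same test, 9.09% in all. At an unadjusted p under 0.05, 1 was higher and 2 were lower, and DESeq2 called 1 higher and 2 lower. Beside these counts, 27% of all genes tested passed the unadjusted cut in either direction, and DESeq2 called 13.7% of them. Among the 20 mitosis genes, 1 rose and 2 fell, which is 15.0%. Without the genes acting in both phases, 1 of 20 replication genes (5.0%) and 2 of 17 mitosis genes (11.8%) were called. The median log2 change was -0.02 for replication genes, 0.02 for mitosis genes and -0.0017 over all genes tested. Scaling by library totals alone put these medians at -0.08 for replication and -0.04 for mitosis, while the median of all genes moved to -0.05. In bulk RNA from whole embryos, fewer cycling cells and less RNA per cycling cell cannot be told apart.

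**Figure D1:**
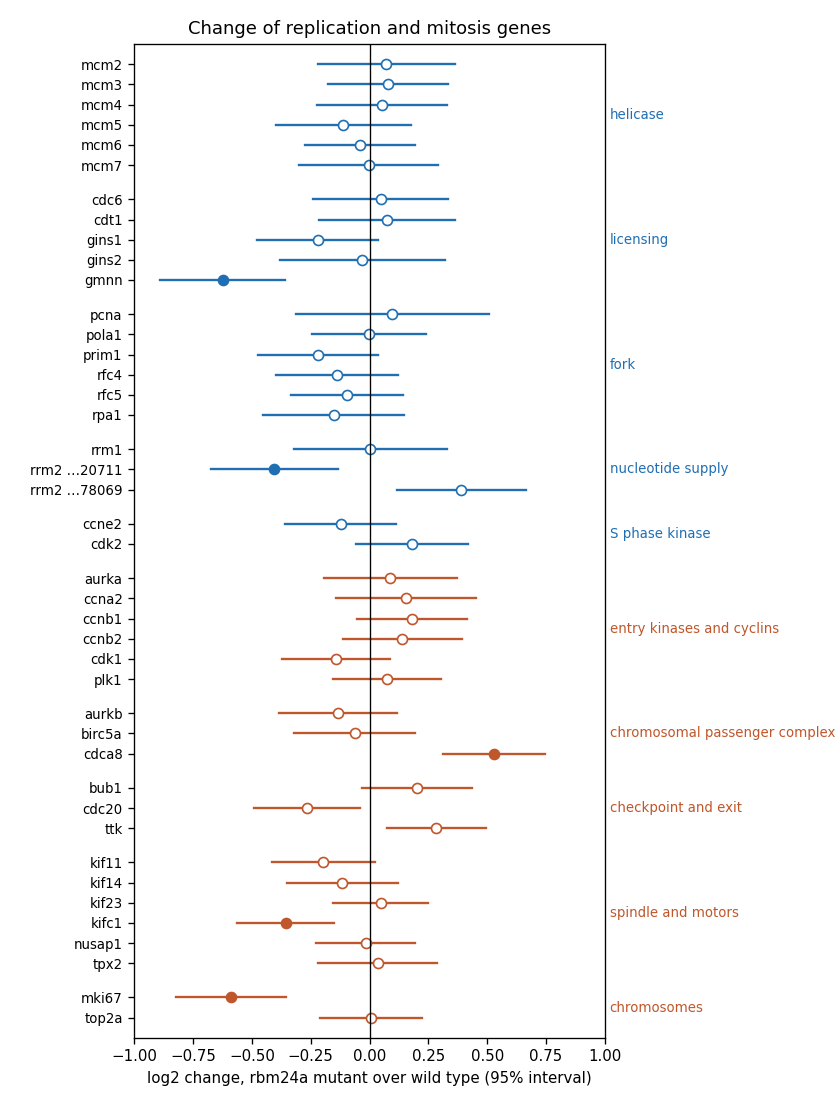
Log2 change of each gene, rbm24a mutant over wild type (x axis), with its 95% interval as a bar, grouped by role. Blue marks replication genes and orange mitosis genes, and filled points are the 5 genes with an adjusted p under 0.05. Most points lie near 0, gmnn and mki67 lie farthest to the left at -0.62 and -0.59, and cdca8 lies farthest to the right at 0.53.

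The MCM helicase, the ring of 6 related subunits that unwinds DNA at the fork, gave 0 calls in edgeR and in DESeq2, and the lowest unadjusted p among its genes was 0.416. Calls made up 14.2% of all genes tested in edgeR and 13.7% in DESeq2, so 0 calls among 6 genes say little. Levels are given as normalised FPKM, the FPKM after TMM scaling of the libraries, which allows comparison between genes and between libraries. Mean levels of mcm2 to mcm7 lay between 45.8 and 114 normalised FPKM in the mutants and between 47.0 and 114 in wild type. Mcm7 had the highest mean level of the 6 genes in each group, and mcm6 the lowest. The 6 log2 changes lay between -0.11 for mcm5 and 0.08 for mcm3. Of these, mcm3 had a 95% interval from -0.18 to 0.33, and mcm5 one from -0.40 to 0.17. Without mutant replicate 2 the 6 changes lay between 0.04 and 0.22, and mcm2, at 0.22, was called higher. In that setting 14.5% of all genes tested were called higher.

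Among the genes that license origins and complete the helicase, gmnn was called and the other 4 were not. Gmnn encodes Geminin, which binds the loading factor Cdt1 and blocks a second round of licensing. It had 14.1, 12.4 and 11.9 normalised FPKM in the mutants, against 21.4, 17.0 and 20.8 in wild type. The groups did not overlap, and gmnn fell with a log2 change of -0.62 (SE 0.12, adjusted p = 0.00411 in the edgeR quasi-likelihood test, Benjamini-Hochberg). Its binding partner cdt1 averaged 11.6 ± 1.85 normalised FPKM in the mutants and 11.02 ± 0.939 in wild type (SD, n = 3 each) and was not called (95% interval of the log2 change -0.21 to 0.36). Cdc6, which loads MCM together with Cdt1, was not called either, at 34.7 ± 6.59 in the mutants and 33.6 ± 2.27 in wild type. Without mutant replicate 2 the log2 changes of cdt1 and cdc6 were 0.20 each, and neither was called. Gins1, a subunit of the GINS complex that activates the helicase, had 31.6, 28.7 and 33.3 normalised FPKM in the mutants, against 38.4, 31.1 and 39.5 in wild type. These groups overlapped at wild-type replicate 2, and the log2 change of gins1 was -0.22 (95% interval -0.48 to 0.04). Gins2 had a log2 change of -0.03, and of 0.14 without mutant replicate 2.

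Pcna, the sliding clamp that holds polymerases on DNA, was the most abundant of the 42 genes. It had 1467, 853 and 1488 normalised FPKM in the mutants, against 1286, 1100 and 1172 in wild type. Mutant replicate 2 was lower than every other library, and mutant replicates 1 and 3 were higher than every wild-type library. The log2 change of pcna over all 6 libraries was 0.10, with a 95% interval from -0.31 to 0.51, the widest of any of the 42. Without mutant replicate 2 the change of pcna was 0.32, and it was called higher, as were 14.5% of all genes tested in that setting. Prim1, the catalytic subunit of primase, had 48.0, 35.7 and 46.8 normalised FPKM in the mutants, against 52.1, 48.6 and 51.2 in wild type. The mutant values of prim1 all lay below the wild-type values, with a log2 change of -0.22 that was not called (95% interval -0.48 to 0.03, adjusted p = 0.259 in the edgeR quasi-likelihood test, Benjamini-Hochberg). Without mutant replicate 2, the change of prim1 was -0.10. The other fork genes were not called, and their log2 changes were -0.0024 for the polymerase subunit pola1, -0.14 and -0.09 for the clamp loader subunits rfc4 and rfc5, and -0.15 for rpa1, which coats single-stranded DNA. Without mutant replicate 2 these became 0.11 for pola1, -0.016 for rfc4, -0.015 for rfc5 and 0.0033 for rpa1. The S phase kinase cdk2 and its cyclin ccne2 had log2 changes of 0.18 and -0.12 and were not called. Without mutant replicate 2, cdk2 was called higher with a change of 0.26, and the change of ccne2 was -0.03.

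Ribonucleotide reductase, which makes deoxynucleotides, is built from a large subunit, encoded by rrm1, and a small subunit, encoded by rrm2. The small-subunit genes had log2 changes of opposite sign, while rrm1 had a log2 change of 0.0028 (95% interval -0.32 to 0.33). Without mutant replicate 2 the change of rrm1 was 0.17, which was not called. The rrm2 gene ENSDARG00000020711 had 167, 132 and 171 normalised FPKM in the mutants, against 211, 193 and 218 in wild type. It was lower in every mutant library and fell with a log2 change of -0.40 (SE 0.12, adjusted p = 0.0458 in the edgeR quasi-likelihood test, Benjamini-Hochberg). This call held in 11 of 16 other settings, with adjusted p between 0.00357 and 0.184. The rrm2 gene ENSDARG00000078069 had 164, 132 and 160 normalised FPKM in the mutants, against 130.0, 101 and 117 in wild type. It was higher in every mutant library, with a log2 change of 0.39 (SE 0.13) that was just short of the threshold (adjusted p = 0.0578). It was called in 9 of 16 other settings, with adjusted p between 3.39e-04 and 0.249.

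Taken as a pair, the rrm2 genes gave 10490, 9680 and 12326 reads in the mutants, against 10853, 10412 and 12016 in wild type. Their summed level was 309 ± 39.1 normalised FPKM in the mutants and 323 ± 25.5 in wild type (SD, n = 3 each), a log2 ratio of the means of -0.07. ENSDARG00000078069 made up 49.3%, 49.8% and 48.2% of the pair's reads in the mutants, against 37.9%, 34.1% and 34.8% in wild type. These shares did not overlap, and the mutant shares lay within 2 percentage points of each other, mutant replicate 2 included. The exonic lengths are 2457 bp for ENSDARG00000020711 and 2439 bp for ENSDARG00000078069. The treatment of reads that match both genes in the authors' counting is not stated in the labels, so the split between them is uncertain.

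**Figure D2:**
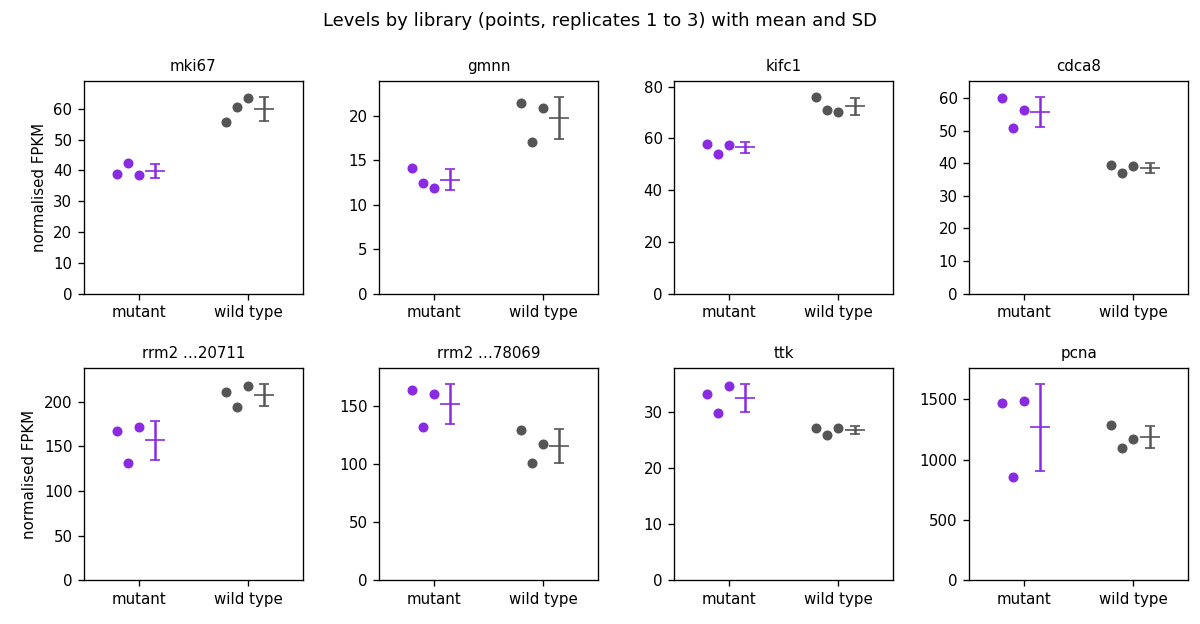
Normalised FPKM of 8 genes by library (points, replicates 1 to 3 from left to right within a group), with the mean and SD of each group beside them, rbm24a mutants left and wild type right. Each y axis starts at 0. Mki67, gmnn and kifc1 are lower in all mutants and cdca8 is higher, the rrm2 genes lie on opposite sides of wild type, and pcna of mutant replicate 2 lies at 853 against 1467 and 1488 in the other mutants.

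Of the genes of mitosis, mki67 gave the smallest p. Mki67 encodes the Ki-67 antigen, which coats mitotic chromosomes and is made in cycling cells. It had 38.8, 42.5 and 38.4 normalised FPKM in the mutants, against 55.8, 60.5 and 63.6 in wild type. The groups were far apart, and mki67 fell with a log2 change of -0.59 (SE 0.11, adjusted p = 0.00245 in the edgeR quasi-likelihood test, Benjamini-Hochberg). Unlike the replication genes described below, mki67 was not low in mutant replicate 2, which had the highest value of the mutants. Its difference from the other mutants was 0.14 on the log2 scale, and -0.03 after the trend with gene length, described below, was taken out. Top2a, the topoisomerase that untangles sister chromosomes, averaged 57.8 ± 2.06 normalised FPKM in the mutants and 57.6 ± 2.56 in wild type (SD, n = 3 each), with a 95% interval of the log2 change from -0.21 to 0.22.

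The chromosomal passenger complex corrects faulty attachments of chromosomes to the spindle. Its subunit cdca8, also called Borealin, had 60.0, 50.8 and 56.4 normalised FPKM in the mutants, against 39.6, 36.9 and 39.3 in wild type. Every mutant library was above every wild-type library, and cdca8 rose with a log2 change of 0.53 (SE 0.10, adjusted p = 0.00302 in the edgeR quasi-likelihood test, Benjamini-Hochberg). The kinase subunit aurkb averaged 72.4 ± 8.76 normalised FPKM in the mutants and 79.4 ± 7.36 in wild type, and the subunit birc5a, or Survivin, averaged 63.2 ± 8.16 in the mutants and 66.0 ± 6.81 in wild type (SD, n = 3 each). Neither was called, with 95% intervals of the log2 change from -0.38 to 0.12 for aurkb and from -0.32 to 0.19 for birc5a. Without mutant replicate 2 their changes were -0.04 for aurkb and 0.04 for birc5a. Cdca8 was thus the 1 measured subunit called, and the difference between subunits was not tested.

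Among the spindle genes, kifc1 fell. Kifc1 encodes a motor of the kinesin-14 family that moves toward microtubule minus ends and focuses spindle poles. It had 57.9, 54.2 and 57.6 normalised FPKM in the mutants, against 76.1, 70.8 and 70.3 in wild type. The groups did not overlap, and the log2 change was -0.36 (SE 0.10, adjusted p = 0.0236 in the edgeR quasi-likelihood test, Benjamini-Hochberg). The call held in 11 of 16 other settings, with adjusted p between 0.00307 and 0.102. Kif11, the kinesin-5 that pushes spindle poles apart, had 84.3, 75.0 and 80.6 normalised FPKM in the mutants, against 92.0, 89.2 and 93.6 in wild type. All its mutant values were below all wild-type values, and its log2 change of -0.20 was not called (95% interval -0.42 to 0.02). Kif14, kif23, nusap1 and tpx2 had log2 changes between -0.12 and 0.05. Without mutant replicate 2 these lay between -0.13 for kif14 and 0.14 for tpx2.

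The spindle checkpoint genes ttk, bub1 and cdc20 were not called. Ttk, the kinase also called Mps1 that starts checkpoint signalling, had 33.3, 29.8 and 34.7 normalised FPKM in the mutants, against 27.2, 26.0 and 27.1 in wild type. Every mutant value of ttk was higher than the wild-type values, with a log2 change of 0.28 (95% interval 0.07 to 0.49, adjusted p = 0.0733 in the edgeR quasi-likelihood test, Benjamini-Hochberg), which was not called. The checkpoint kinase bub1 had 23.9, 20.2 and 23.2 normalised FPKM in the mutants, against 17.4, 20.1 and 21.0 in wild type. Its groups overlapped, and its log2 change was 0.20 (95% interval -0.03 to 0.44). Cdc20, the activator of the anaphase-promoting complex and the target of the checkpoint, had 83.3, 71.8 and 80.6 normalised FPKM in the mutants, against 96.3, 87.2 and 100.3 in wild type. Its mutant values were all lower, with a log2 change of -0.27 that was not called (95% interval -0.49 to -0.04, adjusted p = 0.112).

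The kinases and cyclins of mitotic entry gave 0 calls among 6 genes in edgeR and in DESeq2, with a lowest unadjusted p of 0.121. Over all genes tested, edgeR called 14.2% and DESeq2 13.7%, and at such shares 0 calls among 6 genes say little. Cdk1, the main mitotic kinase, had 163, 139 and 143 normalised FPKM in the mutants, against 174, 152 and 167 in wild type. The groups overlapped, and its log2 change was -0.14 (95% interval -0.37 to 0.09). The other 5, namely its cyclins ccna2, ccnb1 and ccnb2 and the kinases plk1 and aurka, had log2 changes between 0.07 and 0.18. Without mutant replicate 2 these lay between 0.15 for plk1 and 0.31 for ccna2. In that setting ccna2, ccnb1 and aurka were called higher, beside 14.5% of all genes tested.

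By the values of single libraries, 10 of the 42 genes had groups that did not overlap, 3 higher in the mutants and 7 lower. That share of 23.8% stands beside 31.3% among all genes tested. The 10 genes are cdca8, ttk and the rrm2 gene ENSDARG00000078069 on the higher side, and mki67, gmnn, kifc1, the rrm2 gene ENSDARG00000020711, cdc20, kif11 and prim1 on the lower side.

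The replication and mitosis genes were also set side by side in each mutant library, as a description with no test. In mutant replicate 2, all 22 replication genes lay below the mean of the other mutants on the log2 scale, with a median difference of -0.40. The mitosis genes lay lower by a smaller amount, with a median of -0.19, and 18 of 20 were below. These are TMM-scaled values, with scaling factors of 1.084 in mutant replicate 2, against 0.9201 and 0.9492 in mutant replicates 1 and 3. Over all genes tested the median was 0.00, with 8166 of 16489 below. Pcna was farthest down at -0.79, followed by gins2 and rrm1 at -0.57 each. By role, the medians of the replication genes were -0.49 for the MCM helicase, -0.41 for licensing, -0.40 for the fork, -0.36 for nucleotide supply and -0.28 for the S phase kinase. Those of the mitosis genes were -0.31 for the chromosomal passenger complex, -0.26 for mitotic entry, -0.19 for the checkpoint, -0.08 for the spindle and 0.06 for mki67 with top2a, so the roles of the classes overlapped. Gmnn, at -0.06, was the replication gene closest to the other mutants.

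The share of each library's reads also set mutant replicate 2 apart for the replication genes. Replication genes took 0.603%, 0.489% and 0.626% of gene reads in the mutants, against 0.607%, 0.589% and 0.598% in wild type. Mutant replicate 2 was the lowest of the 6, mutant replicate 3 was the highest, and mutant replicate 1 lay within the wild-type range. Pcna gave 27.2% to 32.5% of these reads, and without it the shares were 0.409%, 0.356% and 0.422% in the mutants, against 0.424%, 0.422% and 0.426% in wild type. Mutant replicate 2 was still the lowest, and no mutant library was then above the wild-type range. Mitosis genes took 0.329%, 0.335% and 0.327% in the mutants, against 0.350%, 0.363% and 0.370% in wild type. These shares did not overlap and were lower in the mutants, mutant replicate 2 included, with no scaling between libraries applied. Mutant replicate 2 had the highest of the mutant shares, so its lower mitosis values after TMM scaling were not seen here. After TMM scaling the mitosis sums overlapped, at 3583, 3101 and 3455 CPM in the mutants, against 3566, 3454 and 3643 in wild type. Without mki67 the unscaled shares were 0.2997%, 0.2972% and 0.2973% in the mutants, against 0.305%, 0.311% and 0.317% in wild type, a smaller gap. Mutant replicates 2 and 3 were then nearly level.

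The libraries also differed in a trend with gene length. In mutant replicate 2, genes of a median length of 684 bp lay at -0.16, and those of a median of 6815.5 bp at 0.16. These values are median log2 differences from the mean of the other libraries of the same group. The same medians were 0.13 and -0.08 in mutant replicate 1, 0.06 and -0.05 in mutant replicate 3, and 0.10 and -0.12, -0.09 and 0.11, and -0.01 and 0.01 in wild-type replicates 1 to 3. After that trend was taken out of the TMM-scaled values, mutant replicate 2 still lay below the other mutants. Its replication genes lay at a median of -0.43, with 22 of 22 below, and its mitosis genes at -0.23, with 20 of 20 below. The median for mki67 with top2a was then -0.10, in place of 0.06. In wild-type replicate 2, replication genes lay at -0.10 from the other wild-type libraries and mitosis genes at -0.07 before that step, and at -0.10 and -0.11 after it.

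**Figure D3:**
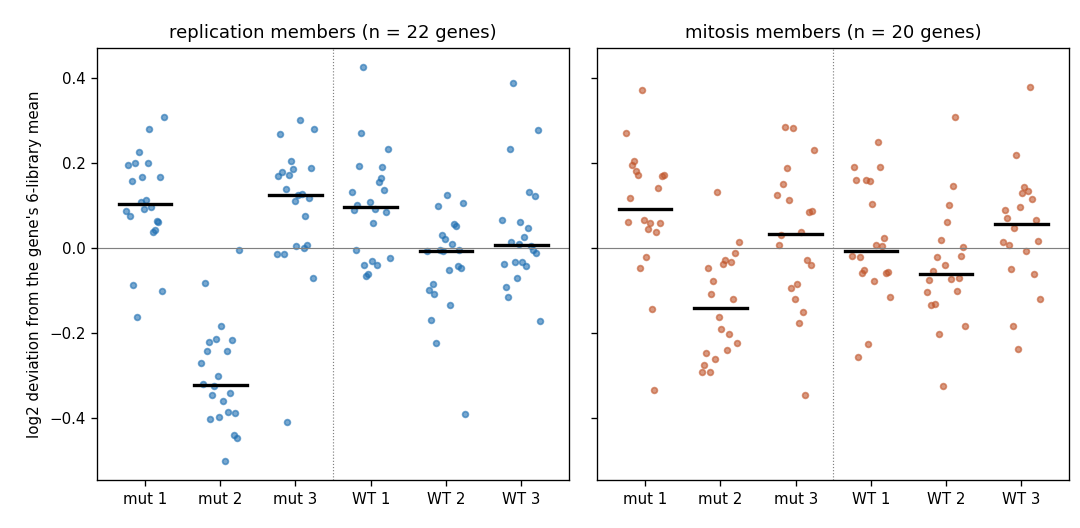
Log2 deviation of each gene from its own mean over the 6 libraries (y axis), for replication genes (left panel) and mitosis genes (right panel), by library, with rbm24a mutants left of wild type (WT). Points are genes and black lines their medians. After TMM scaling, the median in mutant replicate 2 is -0.32 for replication genes and -0.14 for mitosis genes.

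Without mutant replicate 2, more of the 42 genes were called. The test then called 14 of them, 10 higher and 4 lower in the mutants, beside 29.3% of all genes tested, with 14.5% higher and 14.8% lower. Among the replication genes, pcna, mcm2, cdk2 and the rrm2 gene ENSDARG00000078069 rose, and gmnn and the rrm2 gene ENSDARG00000020711 fell. Among the mitosis genes, cdca8, ttk, ccna2, ccnb1, bub1 and aurka rose, and mki67 and kifc1 fell. Pcna had a log2 change of 0.32 (adjusted p = 0.0127 in the edgeR quasi-likelihood test, Benjamini-Hochberg) and ccna2 one of 0.31 (adjusted p = 0.00415). The median log2 change became 0.12 for replication genes, with 15 of 22 above 0, and 0.06 for mitosis genes, with 12 of 20 above 0. Leaving out mutant replicate 1 put the replication median at -0.11, with 18 of 22 below 0, and leaving out mutant replicate 3 put it at -0.08, also with 18 of 22 below 0. The direction of the replication genes as a group therefore rests on which mutant libraries are taken.

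Leaving out any of the other 5 libraries gave 3 calls among the 42 each time, and these were mki67, gmnn and cdca8, which were called in all 16 settings tried. That is 7.14% of the 42, beside 8.29% to 9.99% of all genes tested in the same settings. Their log2 changes without mutant replicate 2 were -0.64 for mki67, -0.60 for gmnn and 0.59 for cdca8.

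**Figure D4:**
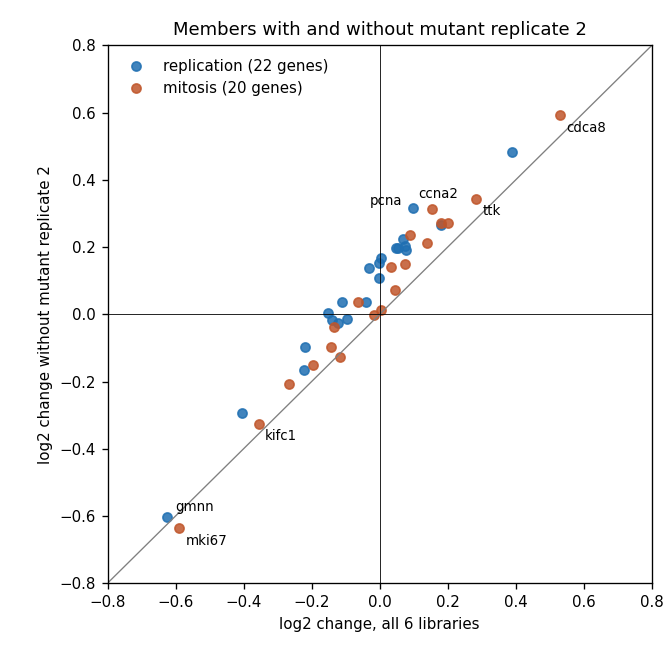
Log2 change of each gene, rbm24a mutant over wild type, without mutant replicate 2 (y axis) against the change over all 6 libraries (x axis), with replication genes in blue and mitosis genes in orange. The diagonal marks equal values. All 22 replication genes and 18 of 20 mitosis genes lie above it, pcna moves to 0.32, and gmnn, mki67, kifc1 and cdca8 stay far from 0.

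Other genes of the same processes were taken from lists of known pathway members. Of 65 further replication genes tested, 1 rose and 3 fell, and their median log2 change was -0.06. The calls made up 6.15%, below the 14.2% of all genes tested. The largest call was slbp, which encodes the protein that binds the stem-loop of histone mRNAs. It had 103, 87.7 and 87.9 normalised FPKM in the mutants, against 152, 145 and 155 in wild type, and fell with a log2 change of -0.70 (adjusted p = 5.24e-04 in the edgeR quasi-likelihood test, Benjamini-Hochberg). The DNA exonuclease exo1 fell with a log2 change of -0.65 and the thymidine kinase tk1 with one of -0.50. The histone chaperone asf1bb rose with a log2 change of 0.56. In mutant replicate 2, 59 of the 65 lay below the other mutants, with a median of -0.34. Without that library 10 rose and 5 fell, beside 14.5% and 14.8% of all genes tested.

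Of 99 further mitosis genes tested, 3 rose and 12 fell, 15.2% in all, with a median log2 change of -0.08. Spc24, a subunit of the NDC80 complex that holds microtubules at the kinetochore, averaged 13.8 ± 1.39 normalised FPKM in the mutants and 36.5 ± 1.37 in wild type (SD, n = 3 each). The groups were far apart, and spc24 fell with a log2 change of -1.40 (SE 0.11, adjusted p = 3.52e-06 in the edgeR quasi-likelihood test, Benjamini-Hochberg). The change of spc24 was larger than that of any of the 42 genes. The kinesin gene kif20ba fell with a log2 change of -0.83, and prc1a, which bundles microtubules between separating chromosomes, with one of -0.57. The kinetochore gene cenpo rose with a log2 change of 0.86. In mutant replicate 2, 73 of the 99 lay below the other mutants, with a median of -0.14. Without that library 15 rose and 25 fell, beside 14.5% and 14.8% of all genes tested. Of 48 tested regulators of the cell cycle, 2 rose, ccng1 (0.57) and mycb (0.45), and cdk6 (-1.15) fell. That is 6.25%, below the 14.2% of all genes tested.

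Markers of cell types were set beside these counts. Of 28 neural progenitor markers tested, 0 rose and 4 fell, which is 14.3%, near the share among all genes. At an unadjusted p under 0.05, 1 was higher and 9 were lower, and DESeq2 called 1 higher and 4 lower. Over all genes tested, 27% passed that unadjusted cut in either direction, and DESeq2 called 13.7%. The genes that fell were her4.2 (log2 change -2.52), her4.1 (-0.94), the proneural gene ascl1a (-0.64) and insm1a (-0.58). Her4.1 and her4.2 are Notch target genes with near-identical copies, and their changes are so uncertain. The summed level of the list lay between 2814 and 3488 CPM (TMM-scaled counts) in the mutants and between 3145 and 3338 in wild type. Of 22 markers of postmitotic neurons tested, 1 rose and 2 fell, with sums of 1234 to 1301 CPM in the mutants and 1325 to 1442 in wild type. Skeletal muscle markers, such as myhz1.1 (log2 change 1.01) and desma (0.70), rose in 7 of 21, and 0 fell by edgeR, by DESeq2 or at an unadjusted p under 0.05, with sums of 24551 to 26471 CPM in the mutants and 17186 to 20692 in wild type. Erythroid markers rose in 5 of 13, such as alas2 (log2 change 0.92), and fell in 1, the globin gene hbbe1.1 (-4.26), with sums of 5005 to 5493 CPM in the mutants and 4019 to 4123 in wild type. Myhz1.1 and hbbe1.1 are also numbered as gene copies, so their changes are uncertain in the same way as those of her4.1 and her4.2. Epidermal markers rose in 2 of 16 and fell in 4, and their sums overlapped. Called shares were 13.6% for postmitotic neuron, 33.3% for muscle, 46.2% for erythroid and 37.5% for epidermal markers. Among all genes tested the share was 14.2%. Without mutant replicate 2, 3 progenitor markers rose and 7 fell, and 14 muscle markers rose and 1 fell. Of all genes tested, 14.5% rose and 14.8% fell in that setting. At least 1 read was found for every gene on these lists except 1 of the postmitotic neuron markers. The part of these tissues in the levels of the replication and mitosis genes was not tested.

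Germ cells, which also divide, were barely sampled. Of 10 germ cell markers, 2 passed the filter, ddx4 and nanos3, mostly through their wild-type reads, so that their lower values in the mutants are no independent result. With no filter, 3 of the 10 fell, while 12.2% of the 25307 genes then tested were called in either direction. Ddx4 had 7, 9 and 13 reads in the mutants, against 44, 46 and 63 in wild type, and nanos3 had 13, 2 and 4 reads in the mutants, against 23, 51 and 50. None of the 10 was at 0 in all 6 libraries, and buc was at 0 in all 3 mutants, against 3, 3 and 0 reads in wild type. Their part in the changes above was not tested.

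Splicing of the same genes was described in the authors' deposited table of splicing events. Events with a false discovery rate (FDR) under 0.05 were listed for 9 of the 42 genes, 21.4%, beside 13.5% of all genes tested. There were 10 such events, of which 6, in 5 genes, had at least 20 reads in each library wherever the reads could be told apart. All 5 are mitosis genes, but the share of all genes with an event at this read depth was not counted. No contrast of the classes is drawn from this count. The shares of 21.4% and 13.5% were not compared at like expression. The median of the mean FPKM was 59.9 for the 42 genes and 4.64 over all genes. Levels in the authors' deposited table carry no replicate number, so they are not tied to libraries. For alternative 3′ splice sites, 556 of a stated 1030 events were held, every one with a lower level in the mutants, and the remainder was not analysed here.

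The event with the largest difference among these was in kif14, a kinesin needed to complete cell division. It lies on the plus strand of GRCz11 chromosome 22, where an exon ending at 22449392 starts at 22449327 in the long form or at 22449333 in the short form, a difference of 6 bp. In the authors' deposited table, the level of the long form was 0.0, 0.0 and 0.0 in the mutants, against 0.648, 0.755 and 0.522 in wild type, as a fraction of transcripts. The reads behind it were 0 of 49, 0 of 49 and 0 of 72 in the mutants, against 23 of 35, 32 of 42 and 25 of 47 in wild type. The long form was thus not detected in 170 mutant reads, which allows a share of up to 1.76% by counting error alone. The authors' deposited table gives a difference of -64.2 percentage points and an FDR of 1.34e-39 for kif14. Its total level was not called, at 7.73 ± 0.598 normalised FPKM in the mutants and 8.36 ± 0.679 in wild type (SD, n = 3 each), and mutant replicate 2 differed from the other mutants by 0.03 on the log2 scale. After the trend with gene length was taken out, that difference was -0.12. Kif14 had the lowest level of the 42 genes.

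Kifc1, which fell in total level, also has a small exon with a changed inclusion. In the authors' deposited table, an exon of 27 bp on the plus strand of GRCz11 chromosome 19, from 7072537 to 7072563, was included at 0.884, 0.924 and 0.75 in the mutants, against 1.0, 1.0 and 1.0 in wild type. Skipping was read 5, 5 and 11 times in the mutants, against 0, 0 and 0 times in wild type, where 217 reads in all supported inclusion. The authors' deposited table gives a difference of -14.7 percentage points (FDR 3.40e-08). A second listed event uses a start 3 bp upstream, at 7072534, and the same end, with a difference of -6.6 points (FDR 2.82e-06), and has the same skipping counts in the mutants. Its inclusion reads in the mutants were 99, 106 and 137, against 45, 72 and 39 for the 27 bp event. The size of the skipped share therefore depends on which start is counted.

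In the other events with at least 20 reads, the differences were below 5 percentage points. In bub1, a pair of exons on the minus strand of chromosome 20 used one in place of the other, 2601085 to 2601234 or 2602092 to 2602927, and the authors' deposited table gives levels of 0.59, 0.603 and 0.605 in the mutants, against 0.561, 0.561 and 0.544 in wild type (4.4 points, FDR 0.0272). The levels of bub1 did not overlap, and which exon of the pair they count was not worked out here. In kif23, an exon of 45 bp on the minus strand of chromosome 18, from 20462012 to 20462056, had levels of 0.104, 0.031 and 0.054 in the mutants, against 0.098, 0.118 and 0.098 in wild type (-4.2 points, FDR 1.10e-04, the authors' deposited table), and these overlapped. In ttk, 3′ sites 3 bp apart on chromosome 16 gave levels of 0.848, 0.717 and 0.816 in the mutants, against 0.906, 0.778 and 0.815 in wild type (-3.9 points, FDR 4.04e-04, the authors' deposited table), which also overlapped. Events of ccnb2, rfc4, mcm4 and the rrm2 gene ENSDARG00000020711 had under 20 reads in at least 1 library of each group, whatever the size of their listed differences, and were not described further.

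**Figure D5:**
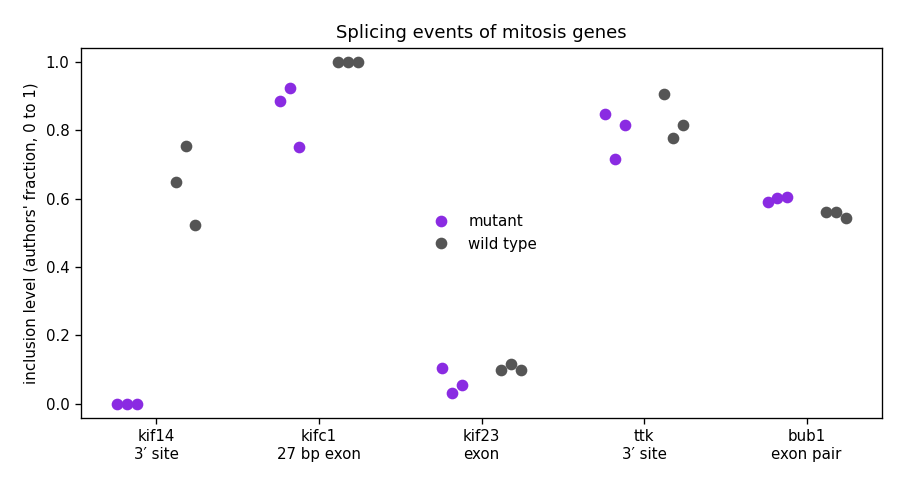
Inclusion level (y axis, fraction from 0 to 1 in the authors' deposited table) of splicing events in 5 mitosis genes, with rbm24a mutants left and wild type right within each gene. Points are the 3 levels of a group, which carry no replicate number. For kifc1 only the 27 bp event is drawn. The long form of kif14 lies at 0.0 in all mutants and between 0.522 and 0.755 in wild type.

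None of the 42 genes is in the authors' deposited table of changed genes, which holds 743 genes, each with a log2 change of at least 1 in size. The absence of the 42 follows from that limit, since the largest log2 change among them was -0.62.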

How the data were processed

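RNA of whole embryos was sequenced as 100 bp paired ends on a HiSeq 2000, per the labels' protocols. The authors deposited whole-number read counts and FPKM values for 31624 genes. FPKM could be recomputed from count, length and library total within 0.005. HISAT2 2.0.1, HTSeq 0.6.1, the GRCz11 assembly, DESeq2, bcl2fastq 2.17.1.14 and cutadapt are named, with no role, per the submitters' processing notes. The labels do not state strand use in counting, so overlapping genes are uncertain. The authors also deposited a table with log2 fold changes and adjusted p-values, and splicing sheets with levels as a fraction, read counts, a p-value with its FDR, and a score, the difference of mean levels between groups, as deposited by the authors. Count cells with merged numbers were parted so that the deposited levels were met within 0.00051. Wild type was taken as the group named earlier in the name of the comparison, and 21 of 22 strongly changed genes had junction reads move with their gene counts.

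The test of counts used edgeR 4.0.16 under R 4.3.3, mutant over wild type, with TMM scaling, the two-sided quasi-likelihood test, Benjamini-Hochberg adjustment over 16489 genes and a threshold of 0.05, using group as the only term. Normalised FPKM is the TMM-scaled CPM divided by exonic length in kilobases. The scripts were tested on simulated data. Alternatives were DESeq2 1.42.0, limma 3.58.1, other scalings and filters, a length correction, a replicate block and leaving out each library. The genes and lists were chosen with earlier results of these data known, so their counts are descriptions with no test of the list. Values per library are given for the 12 genes of smallest p, pcna and cdk1, and up to 4 called genes are named per list. The further genes named without mutant replicate 2 are all those called there. No sequence is printed, since none was used here.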

Additional observations from a re-analysis of the deposited data

How the results depend on the processing

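The main test called 2341 genes, among them 2 replication and 3 mitosis genes. Leaving out 1 library at a time gave 1367 to 4828 genes, 1 to 6 replication genes and 2 to 8 mitosis genes, with medians of the log2 change from -0.11 to 0.12 for replication and from -0.03 to 0.06 for mitosis; the highest values came without mutant replicate 2. Mitosis genes called were 5 with library totals alone, with a filter of at least 5 FPKM (1431 genes in all, of fewer tested), with limma on log2(FPKM + 1) or log2(FPKM + 0.1), and with the replicate block with or without the length correction. Replication genes called were 4 with limma at either pseudocount, and 1 without the genes acting in both phases. The replicate block called 3387 genes. Replicate numbers were not taken to pair the samples, since the labels do not say that they mark a clutch or day. Deviations of same-numbered libraries correlated at 0.22, 0.35 and 0.06. For replicates 1 and 2 this was higher than with any other number, while mutant replicate 3 correlated better with wild-type replicate 1 (0.11). These values do not settle whether the samples are paired. None of the 5 genes called by the main test changed sign in these settings, while pcna, mcm2 and aurka, called higher without mutant replicate 2, kept a positive change in 14, 13 and 15 of 16 settings. The cause of these shifts was not tested. The 42 genes had 346 to 32690 reads per library, and 3 libraries a group limit the precision.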
